A study of Mus musculus with 4 samples.

Results

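The genes described here build the transport machinery and the gate of the primary cilium. They are 37 autosomal genes among the 55599 entries of the deposited expression table. They were chosen by name and role, with earlier results of these data known. By role they are 11 genes of intraflagellar transport complex B (IFT-B), 3 of complex A (IFT-A), 6 of the BBSome, 2 chaperonin-like genes, 12 of the transition zone and 3 genes of ARL GTPases. All 37 were found once, on chromosomes 1 to 19, and all 37 reached the mean of 1 FPKM (fragments scaled to gene length and to library size) required for testing.

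RNA came from neurospheres, the floating clusters formed by cultured neural stem and progenitor cells, of the cortex of C57BL/6 mice at embryonic day 12.5. They were taken at passage 3. The groups were 2 libraries of genotype WT and 2 of genotype LncBAR-KO, which lack the long noncoding RNA LncBAR and are called KO here. The labels give no further allele, agent or treatment, do not say how the knockout was made, and name no embryo or culture for any library. The spread behind each p-value is that of these 4 libraries and could be technical alone.

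The primary cilium is a microtubule-based antenna that most neural progenitors carry at the ventricular surface. IFT-B trains move cargo toward its tip with kinesin, and IFT-A trains return with dynein and help membrane proteins enter. The BBSome is a coat-like complex that carries signalling receptors out of the cilium. The transition zone at the base controls which proteins pass, and ARL GTPases set the delivery and release of lipid-anchored proteins. Hedgehog signalling in the developing cortex is known to need an intact cilium.

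Promoter sequence is a feature that the choice of genes did not use. RFX transcription factors, known regulators of cilium genes, bind the X-box, an inverted repeat with arms close to the letters GTTGCC. RefSeq promoters (GRCm38.p6, 250 bases before to 50 bases after a transcription start) were found for 33 of the 37 genes; Ift80, Ift81, Ift122 and Tmem67 had no entry. An X-box arm, GTTGCC on either strand, stood in a promoter of 16 of these 33 genes, or 48.5%. The share was 14.1% of the 27025 genes with a promoter entry and 14.9% of the 9065 of them that were tested here. Among 48 other cilium genes with an entry, 17 (35.4%) held it. The plot of X-box arm shares shows these 4 values side by side. By group it was found in 7 of 11 transition zone genes, 3 of 6 BBSome genes, 4 of 9 IFT-B genes, 1 of 2 IFT-A genes, 1 of 3 ARL genes and 0 of 2 chaperonin-like genes.

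**Figure D1:**
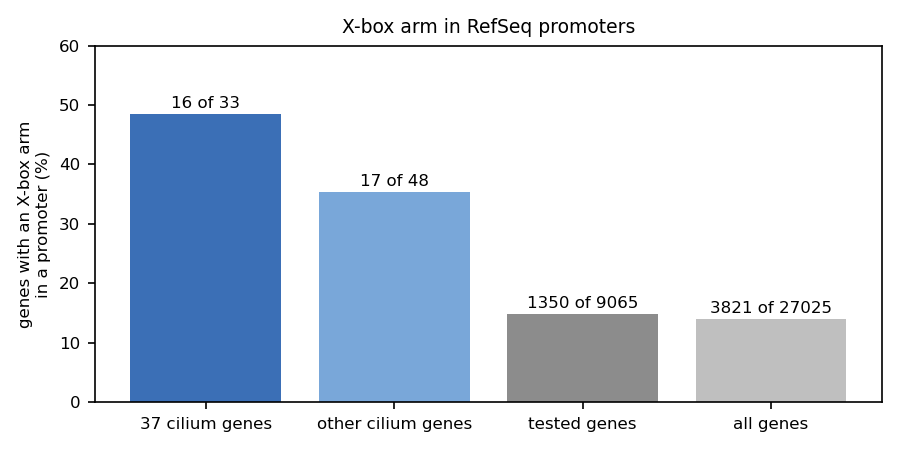
Bars give the percentage of genes with at least 1 X-box arm (either strand) in a RefSeq promoter, with counts above the bars, for the 37 cilium genes (33 with an entry), other cilium genes, genes tested here and all genes with an entry. The bar of the 37 cilium genes stands at 48.5% and that of all genes at 14.1%.

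The stretches below show such matches in members of 5 groups, at places where GENCODE M21 annotates no UTR. Capitals mark the match, either the full X-box with free central letters or a single arm, and each is read 5′ to 3′ on the strand of its gene. They lie at chr3:36613489-36613518 (minus strand, Bbs7), chr11:87853183-87853212 (plus, Mks1), chr16:49699195-49699224 (plus, Ift57), chr17:25015965-25015994 (plus, Ift140), chr19:40612354-40612383 (minus, Tctn3), chr8:111933900-111933929 (minus, Tmem231) and chr16:62847204-62847233 (minus, Arl13b). All are upstream of the start, and the stretch of Tctn3 also overlaps an annotated exon of the neighbouring gene Entpd1.
Bbs7: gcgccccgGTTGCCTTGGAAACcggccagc
Mks1: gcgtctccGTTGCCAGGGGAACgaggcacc
Ift57: gaggcgggtctgGTTGCCgtggtgaccggc
Ift140: gcgtgttgtgacGGCAACctcgcgcccttg
Tctn3: aggctcccagcgGTTGCCaggtaacgggaa
Tmem231: ccagcccatacaGTTGCCttcttgaagaga
Arl13b: acagacgctccaGTTGCCtagttaccagag

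In Ift140 the capitals are the arm read on the other strand. The full X-box was found in 3 of 33 genes, Bbs7, Mks1 and Tctn1 (9.09%). The share was 6.25% among the other cilium genes (3 of 48), 0.662% of tested genes and 0.529% of all genes with an entry. With the central letters fixed as AT it was found in 0 of 33 genes, in 1 of 48 other cilium genes (2.08%), and in 0.143% of tested and 0.152% of all genes. The cyclic AMP response element TGACGTCA was found in 1 of 33 genes (Ift57, 3.03%), a share between the 2.03% of all genes and the 3.92% of tested genes; the other cilium genes had 4.17%. Of the 19 X-box arms in these promoters, 9 began before the transcription start and 10 at or after it. A match describes the letters only and does not show that a factor binds there.

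Facts that hold for the libraries as a whole touch every comparison below. Total counts were 17244057 to 18280445 per library, and the 37 genes together took 0.0874% to 0.0906% of them. Xist, expressed from an inactive X, had 36766 and 31563 counts in WT but 7 and 4 in KO, whereas the Y-linked Ddx3y had 0 and 0 in WT but 1496 and 1847 in KO. The genotype and this sex-chromosome difference cannot be told apart. All 10 neural stem and radial glia markers were past the filter, with 5 of 10 log2 fold changes positive and 5 negative. They summed to 2693 and 2791 FPKM in WT and to 2890 and 2992 FPKM in KO, of which Fabp7 alone made up 1340, 1397, 1482 and 1614 FPKM. All 7 microglia and blood markers and all 7 endothelial and mesenchymal markers lay below 1 FPKM. Neuron markers summed to 183, 200, 201 and 249 FPKM in WT replicate 1, WT replicate 2, KO replicate 1 and KO replicate 2. Of these sums Gap43 alone made up 135, 151, 153 and 201 FPKM, and 5 of the 8 neuron markers had a mean below 1 FPKM. Astrocyte markers summed to 53.1, 43.5, 46.9 and 38.8 FPKM. Oligodendrocyte lineage markers summed to 711, 757, 752 and 773 FPKM, of which Olig1 alone made up 520, 555, 552 and 576 FPKM. The part of these cell types in the results was not tested.

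Multiciliated cells would add cilium RNA of another kind. Of 16 motile cilium and ependymal genes, 14 had a mean below 1 FPKM. The list summed to 12.3 and 15.0 FPKM in WT and to 13.7 and 15.6 FPKM in KO, most of it Foxj1, a regulator of motile ciliogenesis, at 6.98, 9.54, 8.36 and 9.85 FPKM. Values of 4 libraries are given in that same order throughout. Gmnc, which starts the multiciliated programme, had 0 counts in every library, and Mcidas, its partner, had 1, 1, 1 and 0. Fewer ciliated cells and less RNA per cell cannot be told apart in bulk RNA.

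Levels are compared between genes in deposited FPKM, that is per gene length. The 37 genes had a median of 4.53 FPKM against 7.45 FPKM over the 12997 genes tested. Of them 36 lay between 1 and 20 FPKM, and the highest mean was 27.9 times the lowest. The plot of levels by library shows that the order among genes was much wider than the spread among libraries: in 36 of 37 genes the replicates of each genotype differed by less than 1.5-fold.

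**Figure D2:**
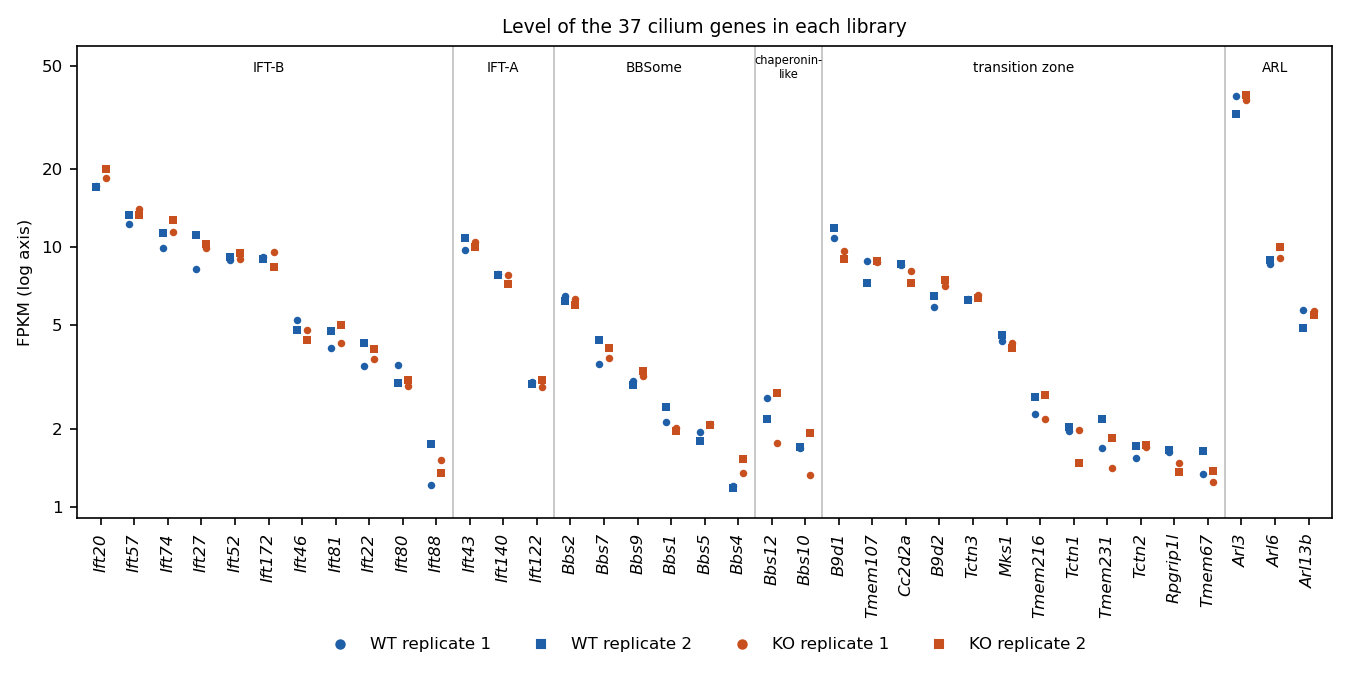
Points are the deposited FPKM (log axis) of each gene in each of the 4 libraries, circles for replicate 1 and squares for replicate 2, blue for WT and orange for KO, by group and in order of mean level. Arl3 stands highest at 32.5 to 38.7 FPKM, and the 4 points of a gene lie close together compared with the distance between genes.

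Arl3 was the most abundant of the 37. It encodes the small GTPase that releases lipid-anchored cargo inside the cilium, and it stood at 38.2, 32.5, 36.9 and 38.7 FPKM. Only WT replicate 2 was lower than the rest, and the groups overlapped. Arl6, the GTPase that recruits the BBSome to membranes, had a mean of 9.16 FPKM. Arl13b, which activates Arl3 and marks the ciliary membrane, was the lowest ARL gene at 5.73, 4.86, 5.66 and 5.46 FPKM.

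IFT-B genes spanned the widest range among the transport genes. Ift20, which also works at the Golgi in sorting cargo bound for the cilium, was highest at 17.2, 17.0, 18.6 and 20.0 FPKM. Ift57, Ift74, Ift27, Ift52 and Ift172 followed with means of 13.3, 11.3, 9.90, 9.16 and 9.02 FPKM. Ift46, Ift81, Ift22 and Ift80 had means of 4.82, 4.53, 3.89 and 3.13 FPKM. Ift88, a core subunit whose loss is widely used to remove cilia, was lowest at 1.21, 1.75, 1.52 and 1.34 FPKM. Its counts were 101, 141, 123 and 112, so its level rests on few reads. Among IFT-A genes, Ift43 was highest at 9.79, 10.9, 10.5 and 10.03 FPKM and Ift122 lowest at 3.02, 2.98, 2.89 and 3.06 FPKM, with Ift140 at a mean of 7.67 FPKM.

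BBSome genes were lower, with a median of 2.63 FPKM against 9.02 FPKM for IFT-B and 3.39 FPKM for the transition zone. Bbs2 was highest at 6.47, 6.22, 6.31 and 5.99 FPKM, and Bbs4 lowest of all 37 genes at 1.20, 1.18, 1.34 and 1.53 FPKM. Bbs7, Bbs9, Bbs1 and Bbs5 had means of 3.94, 3.13, 2.13 and 1.97 FPKM. The chaperonin-like genes Bbs10 and Bbs12, whose products help the BBSome to assemble, stood at 1.69, 1.69, 1.33 and 1.91 FPKM and at 2.61, 2.17, 1.76 and 2.74 FPKM.

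In the transition zone B9d1 was highest, at 10.8, 11.9, 9.64 and 9.04 FPKM. It encodes a protein of the B9 family, as do B9d2 (mean 6.73 FPKM) and Mks1 (mean 4.33 FPKM). Of the Tectonic genes, Tctn3 had a mean of 6.37 FPKM, above Tctn1 at 1.86 and Tctn2 at 1.67 FPKM. Among the transmembrane genes Tmem107 had a mean of 8.44 FPKM, Tmem216 of 2.45 FPKM, Tmem231 of 1.78 FPKM and Tmem67, the Meckelin gene and the lowest of the group, 1.34, 1.64, 1.25 and 1.37 FPKM. Cc2d2a and Rpgrip1l, which encode scaffolds of the zone, had means of 8.12 and 1.53 FPKM.

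These orders depend on the gene length behind FPKM. The length in the table equalled the union of all annotated exons in GENCODE M21 for 37 of 37 genes, and it was over 2 times the longest coding transcript for 9 genes. Rescaled to that transcript, possible for 36 genes (not for Tctn2), Arl3 was first again at 90.6 FPKM and Ift88 was 35th at 2.18 FPKM. Ift80 moved from rank 24 to 13 (9.57 FPKM), Bbs4 from 37 to 30 (3.15 FPKM) and Rpgrip1l from 34 to 28 (3.20 FPKM). Bbs2 moved from rank 16 to 24 and Bbs12 from 27 to 34. The rescaling changes no ratio between libraries.

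The comparison of KO with WT asks whether loss of LncBAR changes these genes. None of the 37 passed an adjusted p of 0.05 in edgeR's quasi-likelihood test (Benjamini-Hochberg over 12997 genes), where 0.0692% of all tested genes were called (0.0385% higher and 0.0308% lower in KO); DESeq2 and limma called 0 of the 37 as well. All 37 are autosomal, and of 12472 autosomal genes edgeR called 0 in that fit, DESeq2 2 and limma 0. At an unadjusted p under 0.05 edgeR had 346 autosomal genes higher and 359 lower in KO. The smallest edgeR adjusted p among the 37 genes was 0.811. At an unadjusted p under 0.05 edgeR had 1 of 37 (B9d1, lower in KO, 2.70%) against 5.92% of all genes in either direction and 2.95% lower. All 37 fold changes had a 95% interval within 2-fold in either direction, against 90.9% of all genes, and 32 of 37 (86.5%) lay within 1.5-fold, against 78.8%. The outermost bounds were 0.615-fold (Tmem231) and 1.58-fold (Bbs4), as the plot of fold changes shows. Among the genes of the authors' deposited table, 0.049% have an adjusted p under 0.05 and none of the 37 does; B9d1 has a log2 fold change of -0.28 there.

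**Figure D3:**
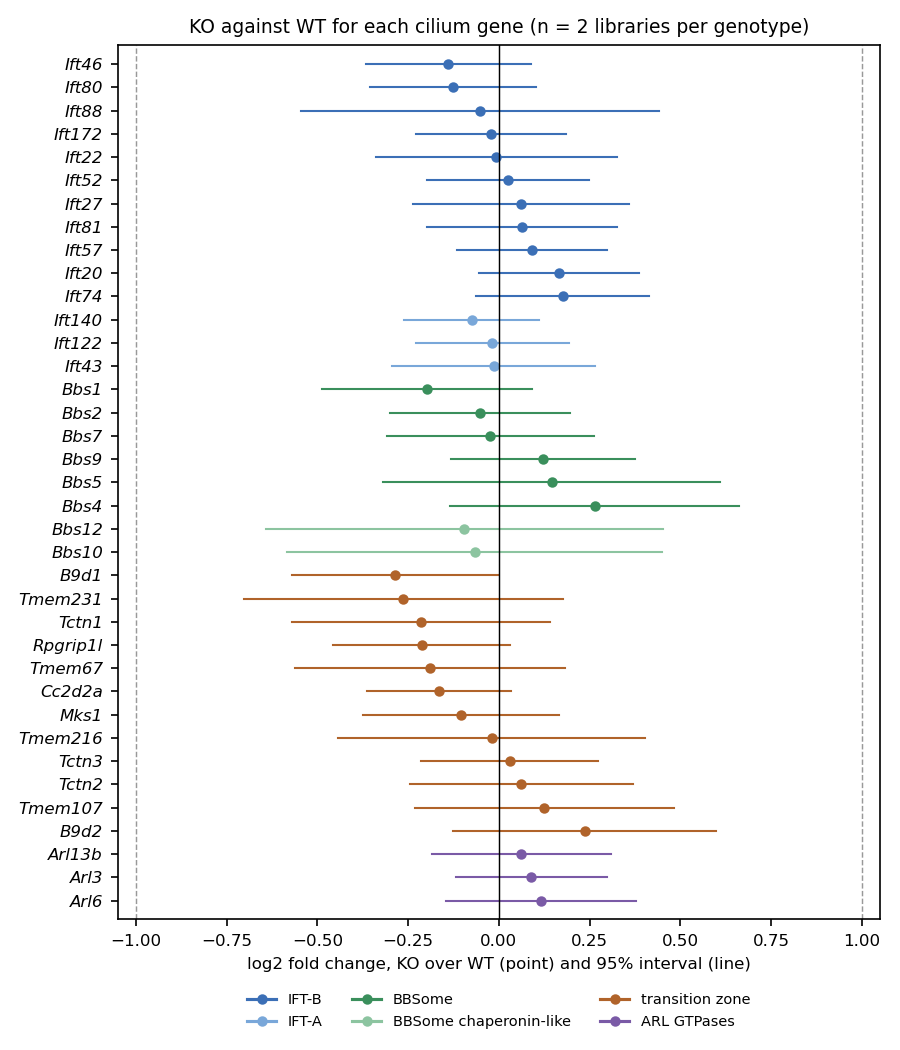
Points are log2 fold changes of KO over WT from edgeR and lines their 95% intervals, by group (n = 2 libraries per genotype); dashed lines mark a 2-fold change. All intervals lie between the dashed lines, and that of B9d1 alone ends just below 0.

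The direction of the 37 was mixed: 16 had a positive and 21 a negative log2 fold change, with a median of -0.02 against 0.00 over all genes tested. In 7 genes (18.9%) both KO libraries lay above both WT libraries in CPM (counts scaled to TMM library size), where 18.1% of all genes did. In 7 others (18.9%) both lay below, where 18.7% of all genes did. Both shares are near those of all genes.

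Transition zone genes had the lowest median of the larger groups, -0.13, with 8 of 12 negative, against 49.02% of all tested genes. Both KO libraries lay below both WT libraries in 4 of 12, B9d1, Rpgrip1l, Cc2d2a and Mks1, where 18.7% of all tested genes did. Both lay above in 1, B9d2, where 18.1% of all tested genes did. B9d1 (chromosome 11, 61505144 to 61512931 in mm10) stood at 17.5, 19.1, 15.6 and 14.5 CPM, or 18.3 ± 1.10 in WT and 15.0 ± 0.771 in KO (SD, n = 2). Its log2 fold change was -0.29 ± 0.13 (SE), with an edgeR adjusted p of 0.811. Rpgrip1l stood at 24.2, 24.6, 22.0 and 20.1 CPM, with a log2 fold change of -0.21 ± 0.11. For Cc2d2a the values were 59.0, 59.2, 55.8 and 49.7 CPM, with KO replicate 2 the lowest (-0.16 ± 0.09). Mks1 was at -0.10 ± 0.12.

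B9d2 differed in sign from its partner B9d1. It had 8.65, 9.52, 10.5 and 10.9 CPM, both KO libraries above both WT libraries (0.24 ± 0.16), on 154 to 196 counts. In Tctn1 a single library stood apart: 16.4, 17.1, 16.7 and 12.2 CPM, low in KO replicate 2 (-0.21 ± 0.16). For 25.5% of its exon length Tctn1 overlaps exons of genes on the opposite strand (Hvcn1 and Gm15481), and the library kit kept no strand, so their reads could not be told apart. Tmem231, at 9.22, 11.8, 7.63 and 9.89 CPM, varied as much within as between genotypes (-0.26 ± 0.20). Tmem67 was at -0.19 ± 0.17, Tmem216 at -0.02 ± 0.19, Tctn3 at 0.03 ± 0.11, Tctn2 at 0.06 ± 0.14 and Tmem107 at 0.12 ± 0.16.

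IFT genes lay closest to no difference. The 14 had a median log2 fold change of -0.01, with 6 positive and 8 negative, and all 14 intervals lay within 1.5-fold. Ift20 stood at 26.6, 26.2, 28.7 and 30.6 CPM (0.17 ± 0.10) and Ift74, a core subunit that binds tubulin with Ift81, at 26.7, 30.5, 30.7 and 33.9 CPM (0.18 ± 0.11). In both genes the KO libraries lay above the WT libraries, narrowly for Ift74. Ift46, which links outer-arm cargo to the train, was opposite in sign at 34.3, 31.2, 31.2 and 28.3 CPM (-0.14 ± 0.10). Ift80, known from skeletal ciliopathies, was high in WT replicate 1 alone, at 44.3, 37.7, 36.6 and 38.6 CPM (-0.13 ± 0.10). The other IFT-B genes were between -0.05 ± 0.22 (Ift88) and 0.09 ± 0.09 (Ift57), and IFT-A genes between -0.07 ± 0.08 (Ift140) and -0.01 ± 0.13 (Ift43).

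BBSome genes were divided, 3 positive and 3 negative, with a median of 0.05. Bbs4, a subunit that ties the complex to pericentriolar satellites, had 7.36, 7.20, 8.21 and 9.27 CPM, both KO libraries higher (0.26 ± 0.18), on 124 to 166 counts. Bbs1, the subunit that contacts Arl6, had 16.5, 18.7, 15.7 and 15.1 CPM, both KO libraries lower (-0.20 ± 0.13). Bbs9 was at 0.12 ± 0.11, Bbs5 at 0.15 ± 0.21, Bbs2 at -0.05 ± 0.11 and Bbs7 at -0.02 ± 0.13. Among all 37 genes the replicates of Bbs12 differed most. It had 115, 92, 75 and 120 counts, a 1.56-fold difference in FPKM between the KO libraries, and Bbs10 had 93, 90, 71 and 105. In both, KO replicate 1 was lowest and KO replicate 2 highest, so the groups overlapped in each (-0.10 ± 0.25 for Bbs12 and -0.07 ± 0.23 for Bbs10).

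The 3 ARL genes were positive, with a median of 0.09. Arl6 was at 0.12 ± 0.12, Arl3 at 0.09 ± 0.09 and Arl13b at 0.06 ± 0.11. For Arl3 and Arl13b WT replicate 2 was lowest, at 81.9 and 25.01 CPM, and without it both had negative values (-0.02 and -0.05).

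In IFT-B, IFT-A, the transition zone and the ARL genes a single library stood apart. The median deviation of a group from the mean of the 4 libraries (log2 CPM) is shown in the plot of deviations by library. For IFT-B it was -0.10, 0.01, 0.02 and 0.05, with WT replicate 1 apart from the rest. For the transition zone it was 0.01, 0.10, -0.01 and -0.02, with WT replicate 2 apart. For ARL genes WT replicate 2 stood at -0.15. IFT-A was at 0.02, 0.03, 0.02 and -0.04, with KO replicate 2 apart. The 2 chaperonin-like genes were at 0.11, -0.02, -0.31 and 0.21, with KO replicate 1 lowest and KO replicate 2 highest. In the BBSome, at -0.02, -0.05, 0.02 and 0.06, no library stood apart, and its median log2 fold change was 0.042 to 0.089 whichever library was left out. Without WT replicate 1 the IFT-B median log2 fold change was -0.0046, and without WT replicate 2 it was 0.15. The transition zone median was -0.05 without WT replicate 2.

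**Figure D4:**
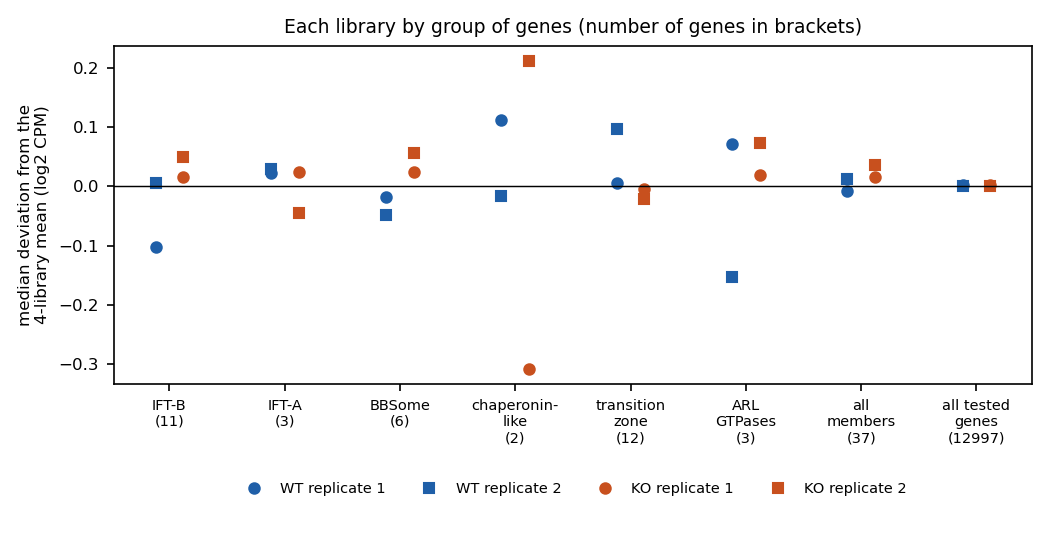
Points give, for each library, the median deviation of a group's genes from their mean over the 4 libraries (log2 CPM), blue for WT and orange for KO; the number of genes is in brackets. For IFT-B the WT libraries stand at -0.10 and 0.01 and the KO libraries at 0.02 and 0.05.

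Other genes of the pathway were read in the same fit, in 8 lists of 71 entries set out with earlier results of these data known, and none passed in edgeR, DESeq2 or limma. The plot of related lists shows their fold changes beside those of the 37. The other IFT genes had a median of -0.01 (9 of 10 tested; Wdr19 at -0.17 ± 0.13 and Traf3ip1 at -0.13 ± 0.14). Ciliary motors had a median of -0.05 (8 of 9 tested), with the dynein-2 genes Wdr34 at 0.21 ± 0.14 and Tctex1d2 at 0.22 ± 0.15. The other BBSome genes had a median of -0.03 (4 of 4 tested; Bbip1 at 0.17 ± 0.09, Ttc8 at -0.31 ± 0.19). The other transition zone genes had a median of -0.01 (12 of 12 tested), against -0.13 for the 12 above. Without KO replicate 1 these medians were -0.089 and -0.11, and without WT replicate 2 they were -0.0091 and -0.055; the difference between the lists was not tested. Nphp4 was at -0.26 ± 0.13 and Invs at -0.13 ± 0.13. Basal body genes had a median of -0.07, with 8 of 10 negative, against 49.02% of all tested genes (Cep164 at -0.17 ± 0.09, Cep83 at -0.14 ± 0.09).

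**Figure D5:**
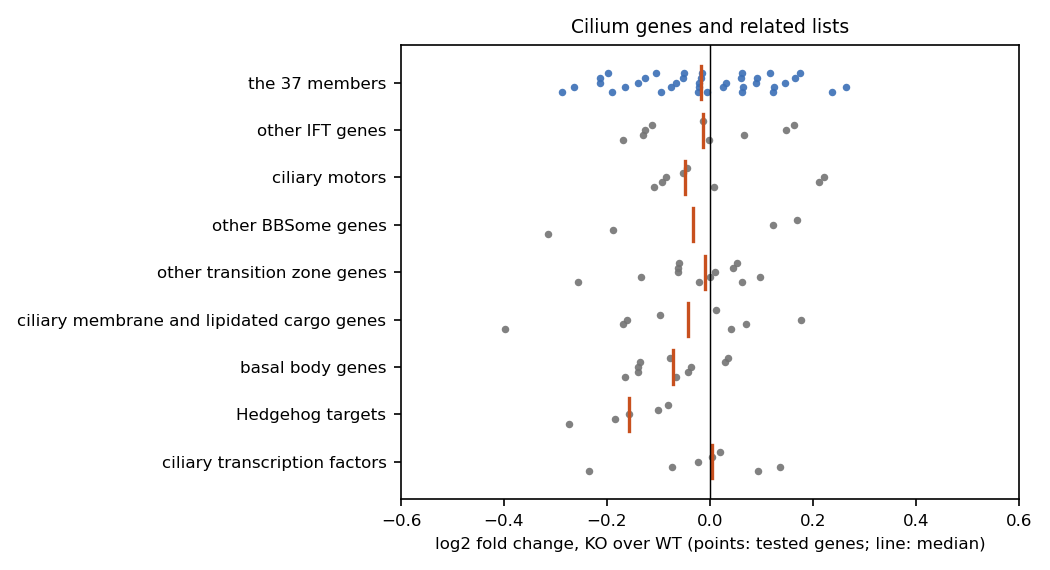
Points are log2 fold changes of KO over WT for the tested genes of each list and the vertical line is their median (n = 2 libraries per genotype). The medians of the 37 genes and of the related lists lie between -0.16 and 0.00.

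The remaining lists hold ciliary membrane, Hedgehog and transcription factor genes, again with none called. Adcy3, the adenylyl cyclase that marks neuronal cilia, had 19.3, 17.8, 14.9 and 13.3 CPM (-0.40 ± 0.13), and Gpr161, a ciliary receptor that restrains Hedgehog signalling, was at -0.17 ± 0.10; their list had a median of -0.04 (8 of 8 tested). Gli3, the main Hedgehog repressor, had 40.8, 44.7, 34.3 and 36.4 CPM (-0.27 ± 0.09), and Sufu, which binds Gli proteins, was at -0.19 ± 0.09. All 5 tested Hedgehog genes had negative values, as did 49.02% of all tested genes. Their median was -0.16, but -0.051 without WT replicate 1 and -0.077 without KO replicate 2, while Gli1, a direct target, had only 3, 6, 6 and 6 counts. Rfx3, an RFX factor of cilium genes, had 78.6, 72.0, 68.0 and 59.9 CPM (-0.24 ± 0.09), and Rfx4, the RFX gene of highest level among those listed, was at -0.07 ± 0.08. Adcy3, Gli3 and Rfx3 each had both KO libraries below both WT libraries, as did 18.7% of all tested genes. Each was named for the smallest p of its list, and each had an edgeR adjusted p of 0.811.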

How the data were processed

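Poly(A) RNA of 2 WT and 2 KO neurosphere samples was sequenced with a non-directional kit, per the labels' protocols. The deposited table holds raw read counts per gene, FPKM per kilobase of a gene length given in the table, the authors' log2 fold changes with p-values and adjusted p-values, and the authors' mean signal per genotype on a count scale. Cutadapt 1.16, TopHat2 2.1.1, Cufflinks 2.2.1 and mm10 are named in the submitters' processing notes; which program counted reads, on which annotation release, and what became of multiply mapped reads is not stated in them. Nothing states that strand was used, so reads where genes on opposite strands overlap could not be told apart by strand. How such reads were counted is not stated.

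The 37 genes, the related lists and the markers were chosen with earlier results of these data known. Counts were tested with edgeR 4.0.16 (R 4.3.3; TMM, quasi-likelihood, genotype only) on the 12997 genes with a mean of at least 1 FPKM, with Benjamini-Hochberg adjustment and a threshold of 0.05. SE is the log2 fold change divided by the root of F, and intervals are 95%. The residual degrees of freedom were 2 and the common biological coefficient of variation 7.90%. To these 2, edgeR added 8.39 prior degrees of freedom drawn from all tested genes. Its p-values and the intervals rest on the total. Alternatives were DESeq2 1.42.0, limma 3.58.1 on log2(FPKM + 1) and log2(FPKM + 0.1), and other scalings and filters. Further ones left out chromosomes X and Y, used a replicate block or left out each library in turn. Levels were also rescaled to the longest coding transcript, an alternative chosen after seeing the data. Member counts per library were 71 to 1732, which gives a counting error of 11.87% to 2.4% of the count. The script was tested on simulated data. All 37 genes are named, with values in every library for the 12 of smallest unadjusted p, the highest and lowest of each group by FPKM, and any gene whose replicates differed at least 1.5-fold; from each related list the 2 of smallest p are named. Coordinates are those of mm10, and positions and lengths in the table matched GENCODE M21 for all 37 genes. The level of LncBAR was not analysed here.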

Additional observations from a re-analysis of the deposited data

How the results depend on the processing

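No alternative called any of the 37 genes or of the related lists. The number called over all genes, 9, was 12 with DESeq2, 4 and 3 with limma on log2(FPKM + 1) and log2(FPKM + 0.1), 31 with no filter and 1 without chromosomes X and Y. It was 15 to 86 with a library left out: 86 and 51 when WT replicate 1 or 2 was missing, 22 and 15 when KO replicate 1 or 2 was. With the replicate block it was 24, and the smallest edgeR adjusted p among the 37 genes was 0.372, within a range of 0.341 to 0.99995 over the alternatives. Over the tested genes, the difference of WT replicate 1 from 2 correlated at 0.1348 with that of KO replicate 1 from 2 (log2 CPM). The labels do not say that a number marks a shared litter or day. With a mean of at least 5 FPKM required, the BBSome kept only 1 gene, Bbs2, at -0.062. Median log2 fold changes were then -0.055 for IFT-A (2 genes left) and 0.019 for the transition zone (5 left). They were 0.032 for IFT (8 left) and 0.050 for all (17 left). With a library left out they were -0.0046 to 0.15 for IFT-B, -0.067 to -0.014 for IFT-A, -0.020 to 0.10 for IFT, 0.042 to 0.089 for the BBSome, -0.40 to 0.18 for the chaperonin-like genes, -0.15 to -0.055 for the transition zone, -0.024 to 0.19 for ARL genes and -0.020 to 0.040 for all. For the related lists these ranges were -0.065 to 0.015 (other IFT), -0.042 to -0.00044 (motors), -0.14 to -0.027 (other BBSome), -0.089 to 0.011 (other transition zone), -0.049 to -0.036 (membrane and cargo), -0.089 to -0.063 (basal body), -0.23 to -0.051 (Hedgehog) and -0.092 to 0.017 (transcription factors). The cause was not tested.

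Of 535 alternative values of single genes, 26, in 16 genes, had the other sign, and 21 genes kept theirs. With a library left out, the 16 ranged from -0.054 to 0.19 (Arl13b), -0.024 to 0.21 (Arl3), -0.35 to 0.17 (Bbs10), -0.44 to 0.18 (Bbs12), -0.16 to 0.13 (Bbs7), -0.055 to 0.019 (Ift122), -0.13 to 0.080 (Ift172), -0.14 to 0.14 (Ift22), -0.14 to 0.29 (Ift27), -0.086 to 0.060 (Ift43), -0.013 to 0.064 (Ift52), -0.046 to 0.17 (Ift81), -0.29 to 0.24 (Ift88), -0.010 to 0.14 (Tctn2), -0.014 to 0.28 (Tmem107) and -0.18 to 0.12 (Tmem216). Ift22 also had 0.0029 and 0.0047 with limma and 0.0042 with no filter. The widest ranges were those of Bbs12, Bbs10 and Ift88, which are among the genes of lowest count.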
